A study of Mus musculus with 8 samples.

Results

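Collagen and laminin genes encode the structural chains of the extracellular matrix, and 46 of the 12393 genes measured in these hippocampi were of this kind. They were taken by gene symbol alone, as Col or Lam names of a chain, from probe sets annotated to 1 gene, with the probe set of highest mean signal standing for each gene. The set held 36 collagen chains and 10 laminin chains. A RefSeq gene table for the mouse lists 55 genes with such names, and the others were not analysed here.

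The RNA came from the hippocampi of 8 male SCID mice aged 12 weeks, animals without mature B and T lymphocytes, and all 8 had undergone contextual fear conditioning. FTY720 (fingolimod), a sphingosine analogue whose phosphorylated form binds sphingosine-1-phosphate receptors, was given to 4 mice at 1 mg/kg by mouth in saline for 3 days, and the 4 vehicle mice were given oral saline for 3 days. Hippocampi were collected 1 hour after the test of consolidation, which was 17 hours after the last dose, and each mouse gave 1 Affymetrix 3′ array (n = 4 per group). Mice are called FTY720 1, 4, 5 and 6 and vehicle 13, 14, 15 and 16, by their replicate labels.

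Collagen chains fold in threes into triple helices, and different types of collagen build different structures: cross-striated fibrils, the flexible sheet of basement membranes, beaded microfibrils, or proteins that decorate fibrils. Laminins are cross-shaped trimers of 1 alpha, 1 beta and 1 gamma chain that polymerise at cell surfaces and, joined to the collagen IV network, form the basement membrane. In the brain these membranes surround blood vessels and lie beneath the meninges, where endothelial cells, mural cells, fibroblasts and astrocyte end-feet contribute chains to them.

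Levels are the log2 signals of the deposited table. They are not compared between genes, because the brightness of a probe set also depends on its probes. Differences are FTY720 minus vehicle on the same log2 scale, with the standard error (SE) of the limma fit over all genes. As the tissue is a bulk sample, fewer cells of a type and less RNA per cell cannot be told apart in any value given here.

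Several features of the arrays bear on these genes. Array medians lay between 6.68 and 6.72, and vehicle 15 (0.994) and vehicle 16 (0.996) had the lowest median correlations with the other arrays. Vehicle 15 had by far the highest means of the thalamus list (1.30, against -0.48 to 0.28 in the other 7 mice) and the striatum list (1.38, against -0.34 to 0.32), both relative to the mean of the 8 mice. Without vehicle 15 the thalamus list still differed by -0.34 between groups and the striatum list by -0.19. With the 8 mice, all 11 thalamus genes were lower in FTY720 mice, 6 at an unadjusted limma p under 0.05 (2.78% of all genes). All 8 measured striatum genes were lower too, 0 of them at that p. The hippocampal markers Neurod6 (10.29 to 10.80) and Zbtb20 (9.62 to 10.14) were bright in every mouse, while the probe set of Prox1, a dentate granule cell gene, was dim (3.10 to 3.58). The Gapdh 5′ minus 3′ difference, a sign of RNA or labelling quality, was -1.08 to -0.80 in FTY720 mice and -1.46 to -1.07 in vehicle mice.

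None of the 46 genes passed an adjusted p of 0.05 (limma with Benjamini-Hochberg adjustment over all 12393 genes, lowest adjusted p among the members 0.719), and percent called over all genes was 0. At an unadjusted p under 0.05, 4 members were higher in FTY720 mice (Col5a2, Col4a1, Col4a2 and Lama1), or 4 of 46 where 3.86% of all genes were, and 0 were lower, where 2.78% of all genes were. In 2 members, Col5a2 and Col4a1, all FTY720 mice lay above all vehicle mice, a pattern that 2.72% of all genes showed. The opposite pattern was seen in 0 members and in 1.78% of all genes. Differences were positive in 27 members and negative in 19 (58.7% positive, against 53.5% of all genes), with a median of 0.05 against 0.01 over all genes. The count of 4 changed when 1 mouse was left out: it was 1 without FTY720 1 and 2 without FTY720 5. Without FTY720 1, Col4a1, Col4a2 and Lama1 differed by 0.20, 0.16 and 0.22, against 0.25, 0.16 and 0.20 with all mice. Without FTY720 5, Col4a2 and Lama1 differed by 0.13 and 0.16. Col5a2 stayed in the count in all 8 fits that left out 1 mouse. The count of 0 lower members became 1 without FTY720 1, FTY720 6 or vehicle 13, and 3 without vehicle 15 (Col3a1, Col26a1 and Lama4).

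**Figure D1:**
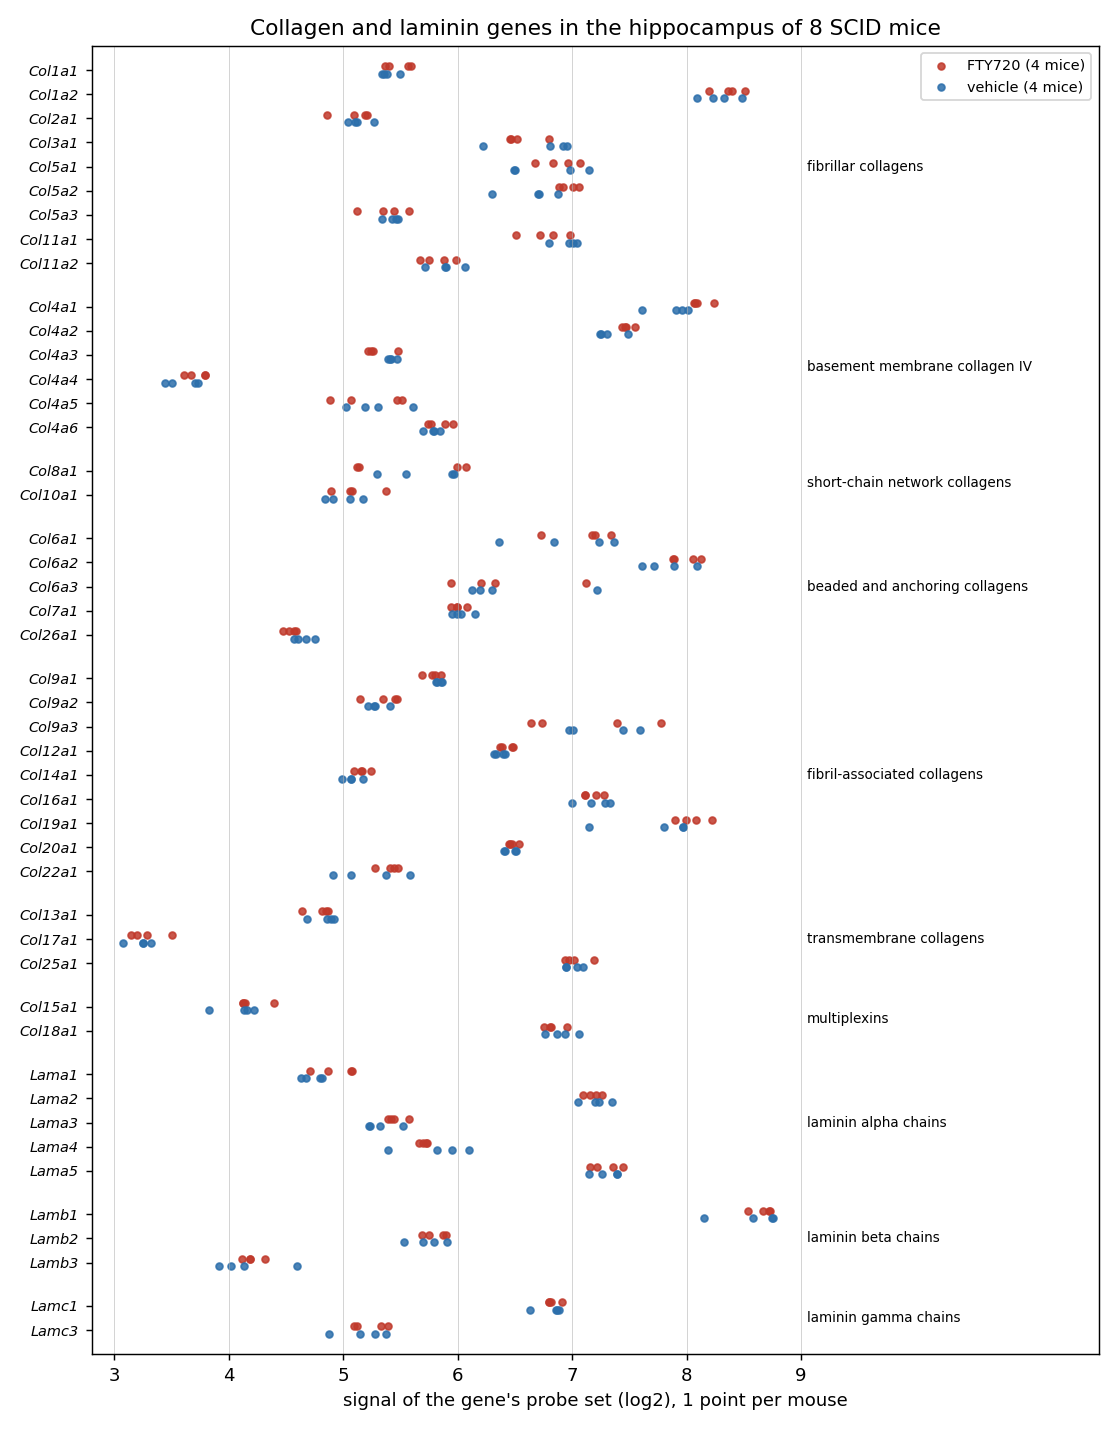
Log2 signal (horizontal axis) of each of the 46 collagen and laminin genes, with 1 point per mouse, red for the 4 FTY720 mice and blue for the 4 vehicle mice, grouped by role. The groups overlap in 44 genes and are apart in Col5a2 and Col4a1; points of Col6a1, Col6a3, Col8a1 and Col9a3 spread most between mice.

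The median within-group SD of the 46 genes was 0.14, from 0.05 to 0.51, while the median over all genes was 0.10. These spreads were not matched for signal, which had a median of 5.83 in the members and 7.17 over all genes. Col6a3, Col9a3, Col8a1 and Col6a1 had the largest spreads, at percentiles 99.4, 99.1, 99.1 and 98.7 of the within-group SD of all genes. Vehicle 15 had the lowest of the 8 values in 14 of the 46 genes, while it was lowest in 23.6% of all genes, and FTY720 6 had the highest in 11, while it was highest in 14.6% of all genes.

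Collagen IV makes the sheet of the basement membrane, and its alpha 1 and alpha 2 chains, encoded by Col4a1 and Col4a2, are those of ordinary vascular basement membranes. The pair lies head to head on chromosome 8, and RefSeq promoter windows (build GRCm38.p6, 250 bases before to 50 bases after each start) show the arrangement directly. The Col4a1 window is chr8:11312777-11313076 on the minus strand and the Col4a2 window is chr8:11312555-11312854 on the plus strand. Both are printed 5′ to 3′ because these chains were among the members higher at an unadjusted p, and the capitals mark the 78 bases that the windows share, read from opposite strands.
Col4a1: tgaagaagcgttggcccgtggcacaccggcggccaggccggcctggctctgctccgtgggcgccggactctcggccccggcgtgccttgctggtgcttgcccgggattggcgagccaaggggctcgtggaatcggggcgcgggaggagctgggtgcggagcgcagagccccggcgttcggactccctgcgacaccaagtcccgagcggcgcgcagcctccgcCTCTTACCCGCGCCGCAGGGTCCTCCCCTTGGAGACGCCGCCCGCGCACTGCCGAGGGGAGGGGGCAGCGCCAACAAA
Col4a2: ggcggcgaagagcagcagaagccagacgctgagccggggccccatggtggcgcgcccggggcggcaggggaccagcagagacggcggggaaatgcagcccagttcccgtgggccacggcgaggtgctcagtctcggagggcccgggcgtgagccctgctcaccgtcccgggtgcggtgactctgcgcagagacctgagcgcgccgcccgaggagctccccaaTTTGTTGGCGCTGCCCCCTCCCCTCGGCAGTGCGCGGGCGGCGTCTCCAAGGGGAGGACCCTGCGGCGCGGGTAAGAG
The starts lie 21 bases apart, at 11312826 for Col4a1 and 11312805 for Col4a2, so the annotated 5′ ends overlap and no gap lies between them. Col4a5 and Col4a6, another head-to-head pair, have starts 1343 bases apart and no bases in common in these windows. Such an arrangement was not particular to these genes: 3 of the 36 windows matched to 32 members (8.33%) overlapped a window of another gene on the opposite strand, against 10.8% of all 32851 windows. The Col4a1 window holds 1 CCAAT and 1 GGGCGG, and the Col4a2 window 1 CCAAT and 3 GGGCGG, both motifs searched on both strands. CCAAT occurs in 36.1% of member windows and 37.4% of all windows, and GGGCGG in 55.6% and 35.7%, as a description of letters only.

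Col4a1 signals were 8.24, 8.06, 8.07 and 8.09 in FTY720 mice 1, 4, 5 and 6 and 7.91, 7.96, 7.61 and 8.01 in vehicle mice 13, 14, 15 and 16. The lowest FTY720 mouse lay just above the highest vehicle mouse, and vehicle 15 was well below the other 3. The difference was 0.25 (SE 0.09, 95% interval 0.05 to 0.44, 1.19-fold, limma unadjusted p = 0.0193, adjusted p = 0.719), and it was 0.16 without vehicle 15. A second, dimmer Col4a1 probe set gave 0.03 (SE 0.06), so the probe sets of this gene disagreed in size. The unadjusted call was kept in 13 of 15 alternatives and lost with the mean of both probe sets (0.14) and without FTY720 1 (0.20).

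Col4a2 signals were 7.46, 7.43, 7.55 and 7.47 in FTY720 mice and 7.25, 7.49, 7.24 and 7.30 in vehicle mice. Vehicle 14 stood within the FTY720 values while the other 3 vehicle mice were below all of them. The group means, 7.48 ± 0.05 and 7.32 ± 0.11 (SD, n = 4 each), differed by 0.16 (SE 0.06, 95% interval 0.02 to 0.30, 1.12-fold, limma unadjusted p = 0.0333, adjusted p = 0.735). The unadjusted call was kept in 8 of 15 alternatives, and in 2 of the 8 that left out 1 mouse, with differences from 0.11 to 0.21. As Col4a2 has 1 probe set, the 2 alternatives on the choice of probe sets refitted the same values. The filter on dim genes and the intensity trend did so too.

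The other collagen IV chains are more restricted in their tissues, and their differences had both signs. Col4a3, whose chain belongs to the specialised membranes of kidney and lung, was 5.30 ± 0.12 in FTY720 mice and 5.42 ± 0.03 in vehicle mice (SD, n = 4 each), a difference of -0.12 (SE 0.06). Its partner Col4a4 had a difference of 0.12 (SE 0.08) on a dim probe set (mean 3.65). Col4a5 signals ranged from 4.88 to 5.61 and Col4a6 signals from 5.70 to 5.96 over the 8 mice, with differences smaller than their SE. In all, 4 of the 6 chains were positive and 2 negative, and only the ubiquitous pair reached an unadjusted p under 0.05.

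**Figure D2:**
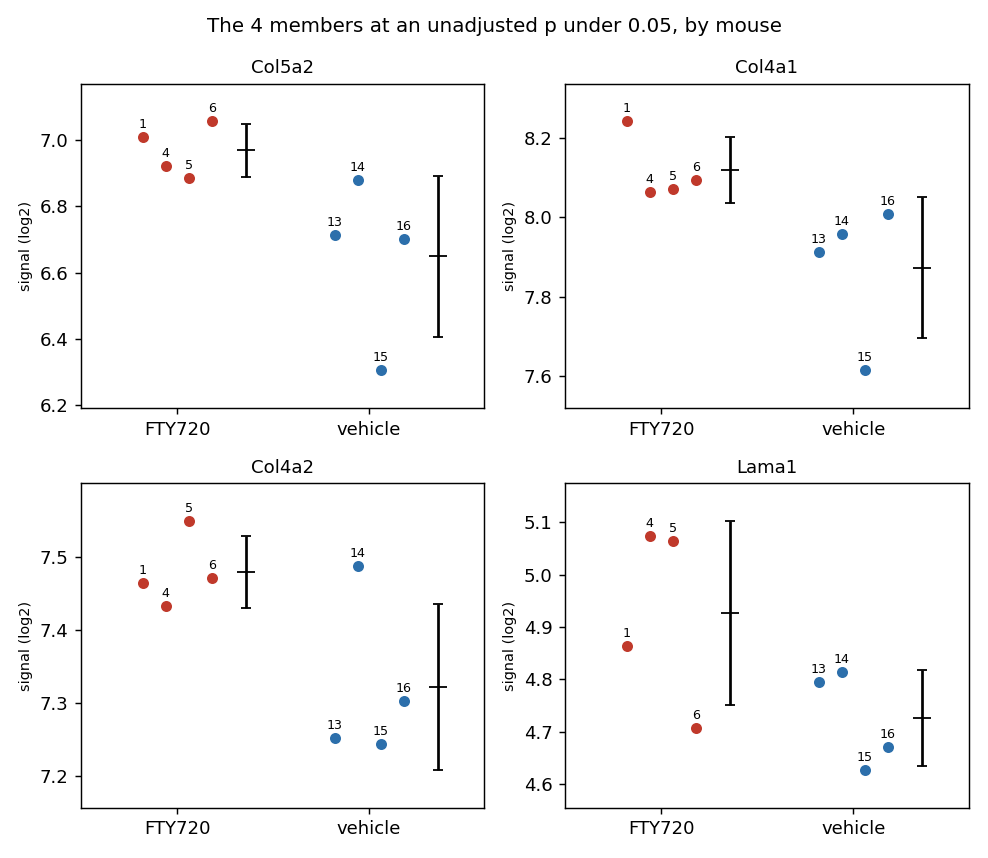
Log2 signal (vertical axis) of Col5a2, Col4a1, Col4a2 and Lama1 by group, with 1 point per mouse, replicate numbers beside the points, and black bars for the mean ± SD of 4 mice. Vehicle 15 is the lowest mouse in all 4 panels, and the groups are apart in Col5a2 and Col4a1 only.

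Fibrillar collagens form the cross-striated fibrils of connective tissue, which in the brain are found in the meninges and the walls of larger vessels. Of the 9 chains measured, 4 had positive and 5 negative differences, from -0.19 to 0.32. Col5a2, a chain of the collagen V that starts and sizes fibrils, gave 7.01, 6.92, 6.89 and 7.06 in FTY720 mice and 6.71, 6.88, 6.30 and 6.70 in vehicle mice. All FTY720 mice were above all vehicle mice, narrowly so over vehicle 14 and by much over vehicle 15. The difference was 0.32 (SE 0.11, 95% interval 0.08 to 0.57, 1.249-fold, limma unadjusted p = 0.0157, adjusted p = 0.719), and 0.21 without vehicle 15. The second Col5a2 probe set gave nearly the same value, 0.31 (SE 0.12), and the unadjusted call was kept in all 15 alternatives run.

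The partner chains of collagen V were unlike Col5a2: Col5a1 ranged from 6.49 to 7.15 and Col5a3 from 5.12 to 5.58 over the 8 mice, each with a difference below its SE. Col1a2, a chain of the main fibril protein collagen I, gave 8.40, 8.51, 8.36 and 8.19 in FTY720 mice and 8.32, 8.49, 8.09 and 8.24 in vehicle mice. These groups overlapped widely, and the difference was 0.08 (SE 0.09, limma adjusted p = 0.902). The second Col1a2 probe set gave -0.03. Its partner Col1a1 was 5.48 ± 0.12 in FTY720 mice and 5.39 ± 0.07 in vehicle mice (SD, n = 4 each), a difference of 0.09 (SE 0.07).

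Col3a1, the single chain of collagen III, which shares fibrils with collagen I, had the opposite sign. It was 6.56 ± 0.16 in FTY720 mice and 6.73 ± 0.34 in vehicle mice (SD, n = 4 each), with a difference of -0.16 (SE 0.16) that became -0.33 without vehicle 15 (limma unadjusted p = 0.00461, adjusted p = 0.614). Col11a1, a chain of the collagen XI of cartilage fibrils, differed by -0.19 (SE 0.10) on its brighter probe set and by -0.06 on the other. Col11a2 (5.67 to 6.06) and the cartilage collagen Col2a1 (4.85 to 5.27) had differences within their SE.

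Collagen VI forms beaded microfibrils next to basement membranes, from 3 chains that assemble inside the cell. Col6a2 signals were 8.06, 7.88, 7.89 and 8.13 in FTY720 mice and 7.72, 7.89, 7.61 and 8.09 in vehicle mice. Vehicle 14 and 16 matched the FTY720 mice, and vehicle 13 and 15 were below them all. The difference was 0.16 (SE 0.10, limma adjusted p = 0.813), and a second probe set also gave 0.16. It was 0.0899 without vehicle 15 and 0.25 without vehicle 16.

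Col6a1 signals were 7.20, 6.72, 7.17 and 7.34 in FTY720 mice and 6.36, 6.84, 7.23 and 7.36 in vehicle mice. The vehicle mice held both the lowest value (vehicle 13) and the highest (vehicle 16), so the difference of 0.16 (SE 0.21, 95% interval -0.31 to 0.63, limma adjusted p = 0.914) was small beside the spread. It was -0.04 without vehicle 13 and 0.51 without vehicle 15 and 16 together.

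Col6a3 signals were 6.32, 6.20, 7.12 and 5.94 in FTY720 mice and 6.20, 6.30, 7.22 and 6.13 in vehicle mice. A single mouse in each group, FTY720 5 and vehicle 15, stood far above the other 3, while the group means were close (difference -0.06, SE 0.29, limma adjusted p = 0.984). The high mice for Col6a3 were thus not those for Col6a1. Among the other chains of this class, Col7a1, the anchoring fibril collagen, ranged from 5.94 to 6.15. Col26a1, on a dim probe set (mean 4.59), differed by -0.11 (SE 0.05, limma unadjusted p = 0.0672).

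Col8a1 makes a short-chain collagen of vessel walls and of the Descemet membrane of the cornea. Its signals were 6.08, 5.14, 6.00 and 5.12 in FTY720 mice and 5.30, 5.95, 5.97 and 5.54 in vehicle mice. FTY720 1 and 5 were high with vehicle 14 and 15, and FTY720 4 and 6 were the lowest, so each group was split in itself. The difference was -0.11 (SE 0.25, limma adjusted p = 0.962). The other short-chain gene, Col10a1 of growth plate cartilage, ranged from 4.84 to 5.37.

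The fibril-associated collagens lie on the surface of fibrils. Among them 6 had positive and 3 negative differences, from -0.12 to 0.33. Col9a3, a chain of collagen IX, gave 7.78, 6.74, 7.39 and 6.64 in FTY720 mice and 6.98, 7.45, 7.59 and 7.01 in vehicle mice. The same 4 mice were high as for Col8a1, namely FTY720 1 and 5 with vehicle 14 and 15. The difference was -0.12 (SE 0.25, 95% interval -0.68 to 0.44, limma adjusted p = 0.956), and the other probe sets gave -0.57 (SE 0.34) and -0.18. Col9a1 differed by -0.06 (SE 0.05) and Col9a2 ranged from 5.15 to 5.47.

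Choroid plexus markers were uneven in the same mice. The mean of the 13 measured markers of that list was 0.74, -0.88, 0.50 and -0.99 in FTY720 1, 4, 5 and 6 and -0.32, 0.62, 1.07 and -0.73 in vehicle 13, 14, 15 and 16, relative to the mean of the 8 mice. Ttr, its defining secreted protein, ranged from 11.87 to 14.47 and Folr1 from 4.35 to 7.33. The 4 mice with a list mean above 0 held the 4 highest values of Col9a3, Col8a1, Col6a3 and Col4a5, an order noticed after the values were seen that 307 of all genes (2.48%) had. The mice fell into separate clusters on this list, so no correlation is given, and the part of choroid plexus RNA in these values was not tested.

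**Figure D3:**
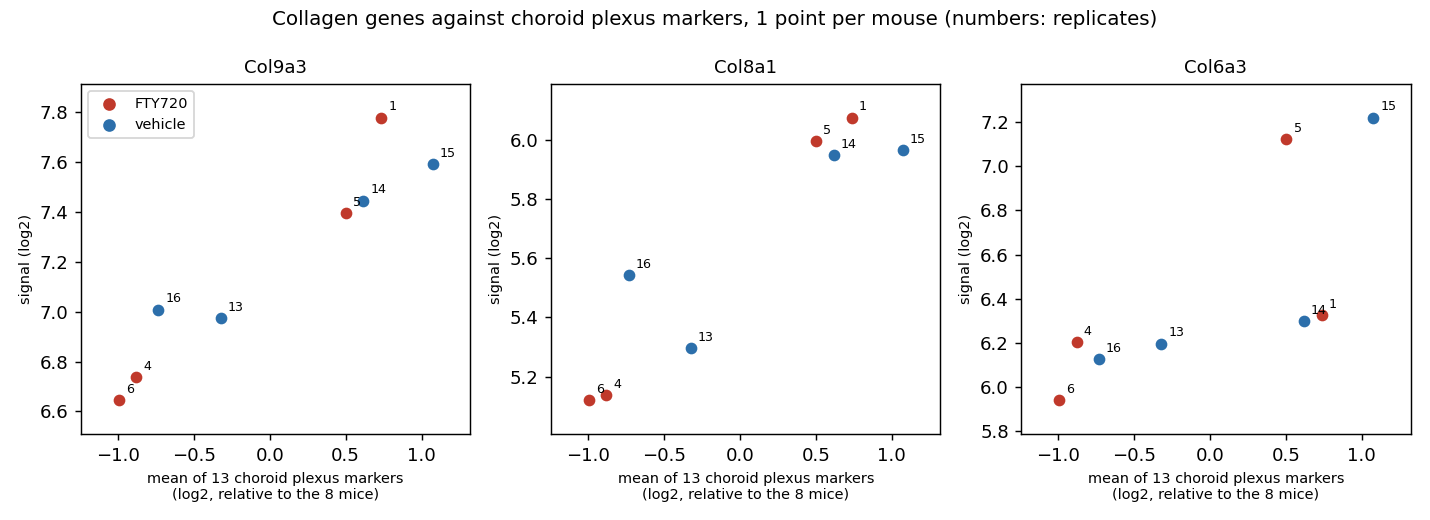
Log2 signal of Col9a3, Col8a1 and Col6a3 (vertical axes) against the mean of 13 choroid plexus markers (horizontal axis, log2 relative to the 8 mice), 1 point per mouse with its replicate number. FTY720 1 and 5 and vehicle 14 and 15 lie to the right and above the other 4 mice in each panel, and for Col6a3 FTY720 5 and vehicle 15 stand apart at the top.

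Col19a1, a rare collagen found in basement membrane zones and in neurons, had the largest positive difference of all members. Its signals were 8.08, 8.22, 7.90 and 7.996 in FTY720 mice and 7.97, 7.80, 7.15 and 7.97 in vehicle mice. The groups overlapped, with vehicle 15 far below every other mouse. The difference was 0.33 (SE 0.17, 95% interval -0.05 to 0.70, 1.254-fold, limma unadjusted p = 0.0817, adjusted p = 0.772), and it was 0.14 without vehicle 15. A second, dim probe set gave 0.14.

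Differences of the remaining fibril-associated chains were small. Col22a1, a collagen of tissue junctions, differed by 0.17 (SE 0.13), Col14a1 by 0.09 (SE 0.06) with -0.01 on its other probe set, and Col12a1 by 0.06 (SE 0.05). Col16a1 ranged from 6.999 to 7.33 and Col20a1 from 6.41 to 6.54 over the 8 mice. One of the other probe sets of Col20a1 gave -0.21 (SE 0.09, limma unadjusted p = 0.0423, adjusted p = 0.710 over all probe sets), with 0.02 on the brightest.

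Collagens that span the cell membrane had differences from -0.05 to 0.06. Col25a1, whose ectodomain associates with amyloid plaques, ranged from 6.93 to 7.19, Col13a1 from 4.64 to 4.92 and the hemidesmosomal Col17a1 from 3.08 to 3.50. The multiplexins are basement membrane collagens with an endostatin-type end. Col15a1 differed by 0.11 (SE 0.10) on a dim probe set (mean 4.14). Col18a1, the source of endostatin, differed by -0.07 (SE 0.07), with 0.07 on its other probe set.

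Laminin alpha chains carry the globular domains that bind integrins and dystroglycan. Lama1, the chain of the meningeal and early embryonic laminins, gave 4.86, 5.07, 5.06 and 4.71 in FTY720 mice and 4.79, 4.81, 4.63 and 4.67 in vehicle mice. FTY720 1, 4 and 5 were above every vehicle mouse and FTY720 6 was among them. The difference was 0.20 (SE 0.09, 1.15-fold, limma unadjusted p = 0.0464, adjusted p = 0.746), and 0.17 without vehicle 15. The Lama1 probe set was dim (mean 4.83), and the filter on dim genes left it out. The unadjusted call was kept in 4 of the 14 alternatives run for Lama1, with differences from 0.12 to 0.27, and in 2 of the 8 that left out 1 mouse.

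Lama5, a chain of the mature vascular laminin, gave 7.35, 7.16, 7.21 and 7.45 in FTY720 mice and 7.15, 7.26, 7.39 and 7.40 in vehicle mice. These ranges were nearly the same, and the difference was -0.00 (SE 0.08, 95% interval -0.19 to 0.18, limma adjusted p = 0.995). Lama3, an epithelial chain, differed by 0.13 (SE 0.08). Lama2, the chain of muscle and of astrocyte and pericyte membranes, ranged from 7.05 to 7.35.

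Lama4, the other endothelial alpha chain, gave unlike answers on its 2 probe sets. The brighter ranged from 5.39 to 6.10, with a difference of -0.12 (SE 0.13). The dimmer gave 3.24, 3.16, 3.17 and 3.30 in FTY720 mice and 3.53, 3.75, 3.51 and 3.64 in vehicle mice. Here every FTY720 mouse was below every vehicle mouse, and the difference was -0.39 (SE 0.07, limma unadjusted p = 1.43e-04, adjusted p = 0.433 over all probe sets) at a mean signal of 3.41. This probe set was singled out after its values were seen. Among the 28 member probe sets beside the brightest of their gene, 1 was higher (Col5a2) and 2 were lower (Lama4 and Col20a1) at an unadjusted limma p under 0.05, where 4.87% and 2.64% of all 7987 such probe sets were. In 18 of the 24 members with more than 1 probe set, all differences had 1 sign.

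Beta and gamma chains complete the laminin trimer, and all 5 differences were positive on the brightest probe sets, from 0.02 to 0.10. For Lamc3 the sign depended on the probe set. The brightest (mean 5.20) gave 0.07 (SE 0.11), and another nearly as bright (mean 5.18) gave -0.07 (SE 0.08). Lamb1, a beta chain found in most basement membranes, gave 8.72, 8.54, 8.67 and 8.73 in FTY720 mice and 8.74, 8.76, 8.58 and 8.15 in vehicle mice. Only vehicle 16 was low. The difference was 0.10 (SE 0.12, limma adjusted p = 0.910), and -0.03 without vehicle 16. Lamb2, the beta chain of vessel walls and synapses, ranged from 5.53 to 5.91, Lamb3 from 3.92 to 4.59, Lamc1, the gamma chain of most laminins, from 6.63 to 6.91, and Lamc3 from 4.87 to 5.39.

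**Figure D4:**
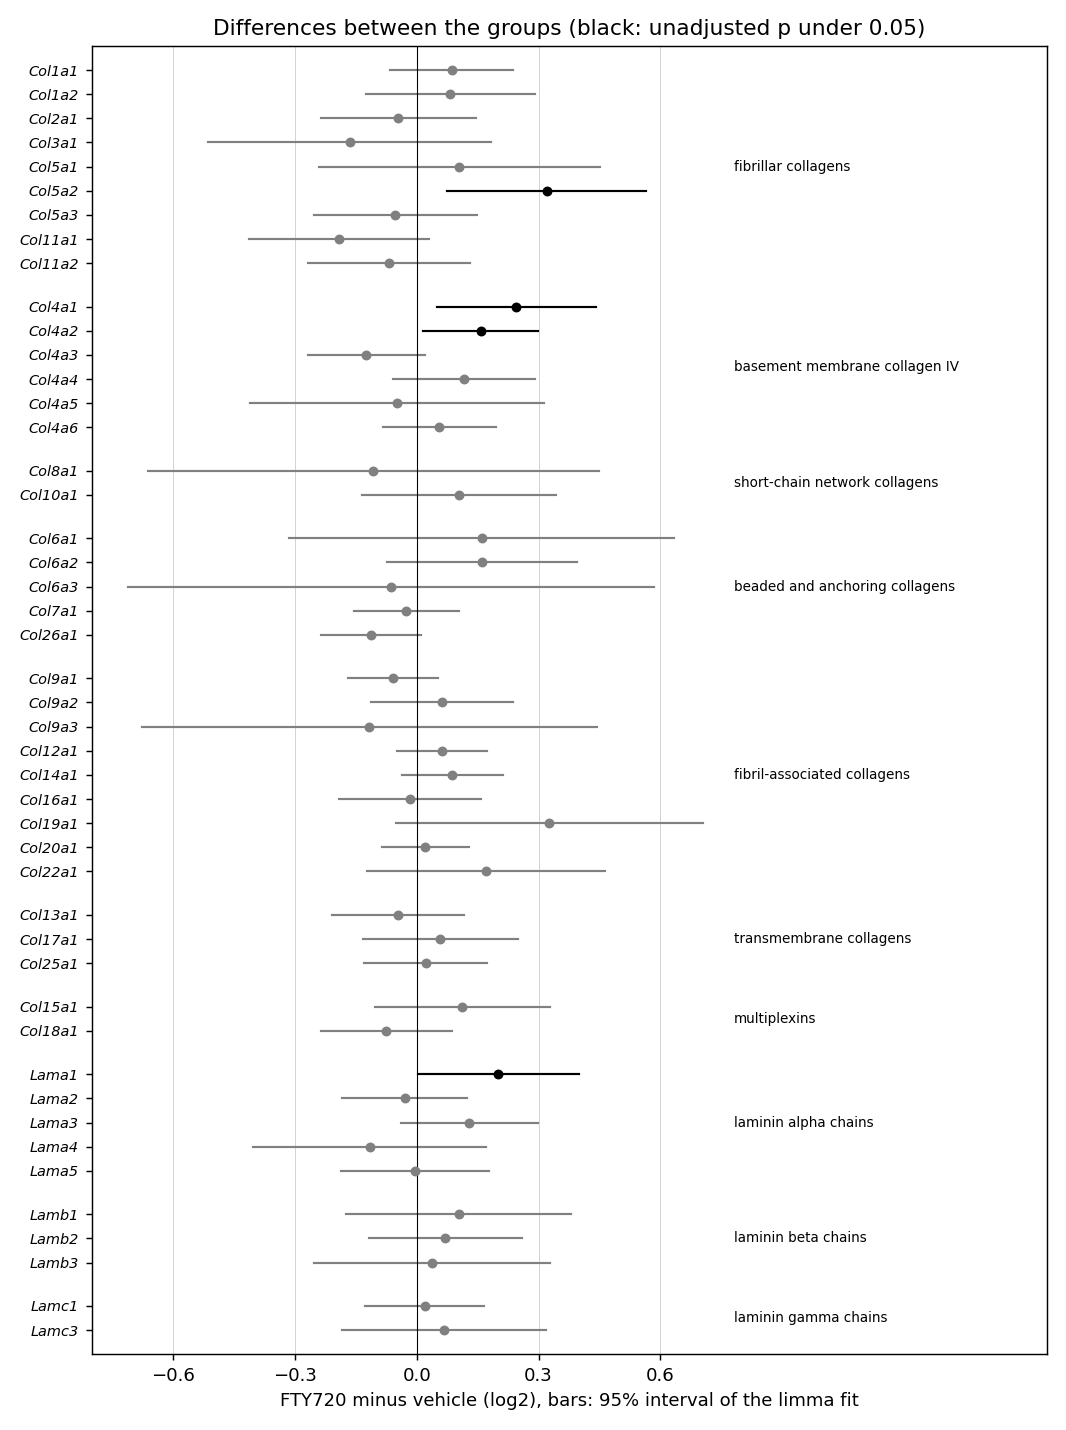
Difference FTY720 minus vehicle (horizontal axis, log2) of each of the 46 genes by role, with bars for the 95% interval of the limma fit, in black for an unadjusted p under 0.05. The intervals of Col5a2, Col4a1, Col4a2 and Lama1 lie above 0, none lies below 0, and the differences run from -0.19 (Col11a1) to 0.33 (Col19a1).

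Chains that share a trimer, or a fibril as collagen I does with collagens III and V, were also compared across mice, with both chains measured in 16 of 17 listed pairs. Col4a1 and Col4a2 had a Pearson r of 0.69 (exact permutation p = 0.0383, adjusted p = 0.454 over the 16 pairs) and a Spearman rho of 0.62 (exact permutation p = 0.115, adjusted p = 0.787). The r was 0.64 without FTY720 1 and vehicle 15, and 0.37 within groups. Col6a1 and Col6a2 had an r of 0.52 (exact permutation p = 0.184, adjusted p = 0.714), which was 0.34 without FTY720 4 and vehicle 13, the mice farthest from the median of Col6a1, and 0.48 within groups. Without vehicle 15 it was 0.92 (exact permutation p = 5.95e-04, adjusted p = 0.00952), 1 of 8 such leave-outs and the only one with a pair past adjustment. Col6a1 and Col6a3 had an r of 0.20 over all 8 mice (exact permutation p = 0.656, adjusted p = 0.935). The highest r of the 16 pairs was that of Lama4 and Lamc1, 0.72 (exact permutation p = 0.0568, adjusted p = 0.454). It was 0.37 without vehicle 15 and 16, and 0.80 within groups. Col9a1 and Col9a2 had an r of 0.52, which was -0.14 without FTY720 5 and vehicle 15, and 0.85 within groups. With all 8 mice, 0 of the 16 pairs passed adjustment and 1 had an unadjusted exact permutation p under 0.05.

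Marker lists of the cells that lay down these chains give the setting for the 4 members above. The 22 fibroblast markers had list means of 0.13, 0.03, 0.01 and -0.03 in FTY720 mice and 0.00, 0.12, -0.30 and 0.04 in vehicle mice, and the 14 mural cell markers 0.06, -0.01, -0.03 and 0.00 against -0.00, 0.06, -0.17 and 0.09. Vehicle 15 was the lowest mouse in both, as it was for Col5a2, Col4a1, Col4a2 and Lama1. The 17 endothelial markers had 0.05, -0.03, -0.00 and -0.13 against 0.03, 0.13, -0.04 and -0.01, with FTY720 6 lowest. The defining genes of these cells averaged 8.43 for Cldn5, 8.47 for Flt1, 8.34 for Pdgfrb, 8.14 for Acta2, 9.82 for Dcn, 7.01 for Lum and 7.04 for Slc6a13. Dcn differed by 0.90 (SE 0.19, limma unadjusted p = 8.12e-04, adjusted p = 0.634) and Cldn5 by -0.21 (SE 0.09, limma unadjusted p = 0.0498, adjusted p = 0.748). Differences of Flt1, Pdgfrb, Acta2, Lum and Slc6a13 ran from -0.07 to 0.01, each within its SE. How far the amount of these cells took part in the collagen and laminin differences was not tested.

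**Figure D5:**
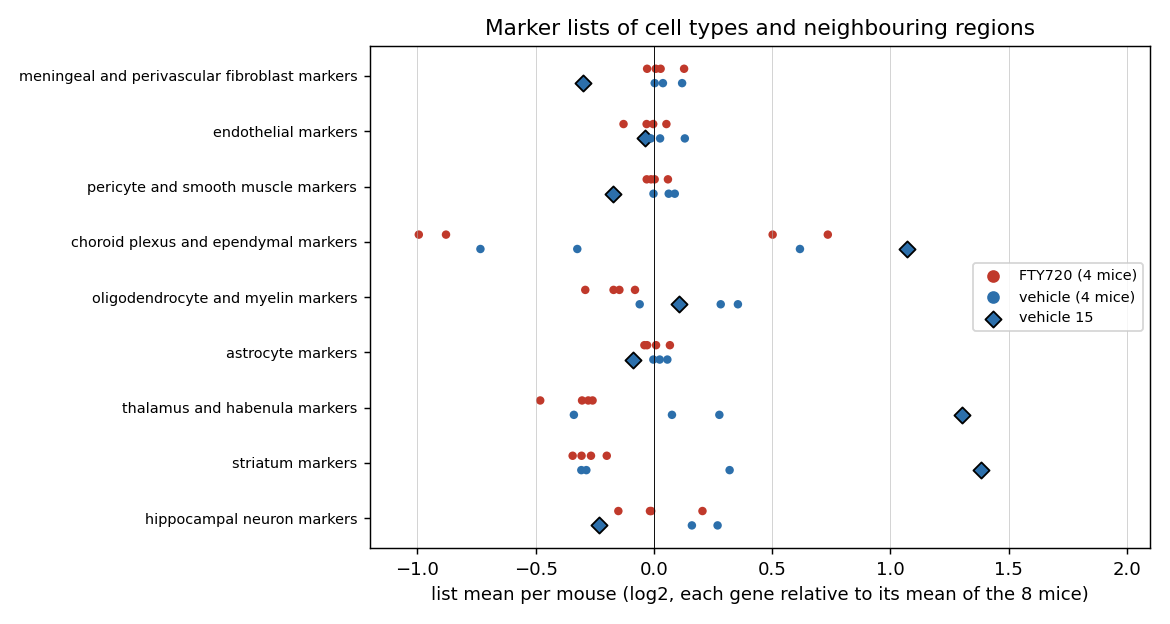
Mean of each marker list per mouse (horizontal axis, log2 relative to the mean of the 8 mice), red for FTY720 and blue for vehicle, with vehicle 15 as a diamond. Vehicle 15 lies at 1.30 for the thalamus list, 1.38 for the striatum list and -0.30 for the fibroblast list, and the choroid plexus list spreads the mice in both groups.

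Genes that make, bind or cut these chains were read from 5 lists, and 0 of their genes passed an adjusted p of 0.05 in limma. The counts at an unadjusted p under 0.05 stand beside the 3.86% of all genes that were higher and the 2.78% that were lower. Of 19 measured enzymes and chaperones of collagen maturation, 1 was higher and 1 lower at an unadjusted p under 0.05. Serpinh1, the collagen chaperone Hsp47, was 6.68 ± 0.13 in FTY720 mice and 6.89 ± 0.06 in vehicle mice (SD, n = 4 each), with all FTY720 mice below all vehicle mice and a difference of -0.22 (SE 0.07). P4ha2, a prolyl 4-hydroxylase chain, differed by 0.16 (SE 0.06) and the prolyl 3-hydroxylase P3h1 by 0.14 (SE 0.08). Their signs were thus mixed, and the median of the 19 was -0.06.

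Of 14 measured basement membrane partners, 0 passed an unadjusted p under 0.05, with a median difference of 0.00. Fbln2, a fibulin that binds laminin, differed by 0.22 (SE 0.10), Ntn1, a laminin-related netrin, by -0.37 (SE 0.20) with vehicle 15 alone high at 7.44, and Ntn4 by -0.15 (SE 0.09). Of 12 receptors, 0 were higher and 2 lower. Ddr1, a collagen-binding receptor tyrosine kinase, was 9.76 ± 0.06 in FTY720 mice and 9.99 ± 0.09 in vehicle mice (SD, n = 4 each), a difference of -0.23 (SE 0.06, limma unadjusted p = 0.00290, adjusted p = 0.634) with no overlap. Lair1, an inhibitory collagen receptor of leukocytes, differed by -0.24 (SE 0.11), and Itga6, a laminin-binding integrin chain, by 0.06 (SE 0.05). Ddr1 is also made by oligodendrocytes, and the 12 measured oligodendrocyte markers had list means of -0.29 to -0.08 in FTY720 mice and -0.06 to 0.36 in vehicle mice, a list whose part in the Ddr1 value was not tested.

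The fibril-binding proteoglycans and glycoproteins held the largest differences. Of 18 measured, 4 were higher and 0 lower at an unadjusted p under 0.05 (3.86% and 2.78% of all genes), with a median of 0.05 against 0.01 over all genes. Differences ran from -0.48 to 0.90, 12 positive and 6 negative, and the lowest did not reach an unadjusted p under 0.05. Dcn, decorin, which coats collagen fibrils, was 10.32, 9.90, 10.49 and 10.36 in FTY720 mice and 9.80, 9.58, 9.002 and 9.09 in vehicle mice. All FTY720 mice were above all vehicle mice, and the difference was 0.90 (SE 0.19, limma adjusted p = 0.634) against 0.09 for Col1a1, 0.08 for Col1a2 and -0.16 for Col3a1, chains of the fibrils it coats. Lum, lumican, a related proteoglycan, differed by -0.07 (SE 0.09). Fn1, fibronectin, differed by 0.36 (SE 0.16) with vehicle 15 lowest at 7.98, and the dim Kera, keratocan, by 0.18 (SE 0.05). Of 17 matrix proteases and inhibitors 1 was higher, Timp4 at 0.19 (SE 0.08), and 2 were lower, Mmp9 at -0.20 (SE 0.07) and Mmp8 at -0.16 (SE 0.06), with a median of -0.03.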

How the data were processed

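Total RNA (100 ng per array) from the hippocampus of single mice was labelled for Affymetrix 3′ arrays, per the labels' protocols. The table that the authors deposited holds 1 value per probe set and array, on a log2 scale judging by its range. Per the submitters' processing notes, Affymetrix Expression Console, MAS5 and RMA were tools of the study, with their roles and versions not stated there, and no genome build was used for the probe sets. In the platform annotation 20380 of the 22690 probe sets carried a single gene symbol, 691 several and 1619 none, and by Entrez ID 20351 were found in the RefSeq gene table, with 0 symbols changed. The probe set of highest mean stood for each of the 12393 genes, with no filter on low values. FTY720 and vehicle were compared with limma 3.58.1 in R 4.3.3 (lmFit, eBayes, no covariate), with Benjamini-Hochberg adjustment over all genes, and the fit was tested on simulated data. The number of arrays limits the precision.

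Values of every mouse were given for members at an unadjusted p under 0.05 or with groups that did not overlap, the 8 of highest mean signal and the 4 of largest within-group SD, and for the 3 genes of smallest unadjusted p in each pathway list the difference. Of the other members, those with a difference larger than its SE are named with it, and the rest by their range. Members, lists and tests were chosen with earlier results of these data known. The labels say that each array is a separate mouse. Alternatives were quantile normalization, the mean of all probe sets of a gene, leaving out probe sets whose probes may hit several transcripts (_x_at and _s_at), a filter on dim genes, an intensity trend, array weights, leaving out each mouse, and leaving out vehicle 15 and 16 together, which earlier results of these data had shown to stand apart. The filter and the intensity trend refitted the same values with only the SE changed. So did alternatives on probe sets that left a gene's probe set as it was, and a call kept there adds little.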

Additional observations from a re-analysis of the deposited data

Results flagged for a closer look

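Within the 46 genes, 92 groups of 4 mice were checked for a single mouse far from the other 3 (Dixon's test at the 95% level), and 5 values stood out, where chance gives about 1 in 20 groups. Col4a1 was 8.24 in FTY720 1, with the next mouse of that group at 8.09. Col6a3 was 7.22 in vehicle 15, with the next at 6.30. Lamc1 was 6.91 in FTY720 6, with the next at 6.81, and 6.63 in vehicle 15, with the next at 6.86. Col15a1 was 4.39 in FTY720 6, with the next at 4.14.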

How the results depend on the processing

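No paired analysis was possible because the groups share no replicate numbers. The members past an adjusted p of 0.05 in limma were 0 in the main analysis and in all 15 alternatives, with the members' lowest adjusted p between 0.542 and 0.885. Members higher at an unadjusted p ranged from 1 to 5 and members lower from 0 to 3 when 1 mouse was left out. In the same fits 2.76% to 4.54% of all genes were higher and 2.32% to 3.49% lower. Lower members numbered 1 under quantile normalization (Col26a1) and with the mean of all probe sets (Lama4), where 3.29% and 2.50% of all genes were lower. They also numbered 1 without _x_at and _s_at probe sets (Col20a1) and with array weights (Col26a1), with 2.60% and 3.15% of all genes. Without vehicle 15 and 16 they numbered 2 (Col3a1 and Lama4), with 2.82% of all genes. Chain pairs past adjustment ranged from 0 to 1 when 1 mouse was left out, the 1 being Col6a1 and Col6a2 without vehicle 15.

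Of the 26 genes whose difference was in full or larger than its SE, 17 kept their sign in every alternative run for them and 9 did not, and 5 of the 17 were not tested under the filter on dim genes. Col18a1 was 0.0716 without _x_at and _s_at probe sets. Without vehicle 15 and 16, Col1a2 was -0.0387, Col22a1 -0.0742, Col6a3 0.15, Lama5 0.0911 and Lamb1 -0.0870. With array weights, Col6a3 was 0.13, Col8a1 0.0522, Col9a3 0.0214 and Lama5 0.0378. Leaving out 1 mouse gave -0.0365 to 0.30 for Col6a1, -0.31 to 0.19 for Col6a3, -0.27 to 0.0478 for Col8a1, -0.33 to 0.0483 for Col9a3, -0.0556 to 0.0406 for Lama5 and -0.0317 to 0.17 for Lamb1. The cause of these reversals was not tested. The filter on dim genes left 32 of the 46 members among 9294 genes. With 4 mice per group, a median SE of 0.09 limits what can be seen in these genes.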

Other observations

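The proteins that lie on fibrils included Fbn2, the fibrillin of developing microfibrils, with a difference of 0.24 (chosen after its values were seen), as the fourth member of its list at an unadjusted p under 0.05. Mmp8, a neutrophil collagenase, was 4.15 ± 0.05 in FTY720 mice and 4.31 ± 0.09 in vehicle mice (SD, n = 4 each), with every FTY720 mouse below every vehicle mouse, on a dim probe set.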
